A study of Danio rerio with 14 samples.

Results

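The collagen chain genes of the adult zebrafish heart were followed after induction of *il11a*, the gene of the cytokine interleukin 11. They were taken as every gene of both deposited count tables whose symbol is col, a number, the letter a and a number, such as *col1a1a* or *col12a1b*, which gave 57 of 32520 genes. By chain number, 15 were fibrillar collagens, 9 basement membrane collagens, 12 fibril-associated collagens with interrupted triple helices (FACIT), 5 beaded filament collagens of type VI, and 16 belonged to other types. The libraries came from pools of uninjured hearts of adult fish. The study's methods give their strain as outbred Ekkwill, and its reporting summary as Ekkwill or AB. For the tissue, the study's results name ventricles at 7 dpt and hearts at 7 mpt, while its methods and the sample titles name hearts at both. All fish carried the transgene *actb2:loxp-BFP-stop-loxp-il11a* and were bathed in 5 µM tamoxifen for 24 h. In *il11a*OE fish, which also carried *cmlc2:creER*, the Cre recombinase is made in cardiomyocytes. By design the *actb2* promoter then drives *il11a* from heart muscle cells and not from the other cells of the heart. Which cells expressed it was not tested here. Control fish were littermates with the transgene and tamoxifen but without *cmlc2:creER*. Hearts were taken 7 days post tamoxifen (7 dpt, 3 *il11a*OE and 3 control libraries) or 7 months post tamoxifen (7 mpt, 4 *il11a*OE and 4 control libraries). At 7 mpt each group holds pairs of libraries whose names carry the letter F or M, which the labels do not define.

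Collagens are built from chains that wind around each other in a triple helix. Fibrillar chains such as those of types I, V and XI assemble into the fibres that give the heart wall and scars their tensile strength, with type V and type XI chains setting fibril diameter. FACIT collagens sit on the surface of those fibrils, type VI forms beaded filaments around cells, and type IV makes the sheet of the basement membrane under endothelium and around each cardiomyocyte, where types XV and XVIII are attached. In the heart the fibrillar chains are made mostly by fibroblasts and epicardium-derived cells.

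Each library held 61691132 to 80703699 counts in *il11a*OE and 63302651 to 73919890 in control at 7 dpt, where a count is a read pair. The 7 mpt libraries held 73275884 to 130058630 in *il11a*OE and 87358547 to 105489597 in control, where each mate of a pair was counted, so no level is set against one of the other time point. Levels are given as CPM, counts scaled to the size of the library and, between genes, as CPM per kilobase of exon (RPKM). The induced gene *il11a* stood at 386, 325 and 369.8 CPM in *il11a*OE libraries, against 47.3, 41.6 and 53.7 CPM in control libraries of 7 dpt, and at 340.4, 262, 336 and 433 CPM against 70.7, 90.5, 41.01 and 41.2 CPM at 7 mpt. The heart label fitted the summed cardiomyocyte markers, at 26203 to 31038 CPM in *il11a*OE and 38502 to 41867 CPM in control at 7 dpt, and at 17626 to 27282 CPM in *il11a*OE and 37273 to 52359.5 CPM in control at 7 mpt. Control replicate 2 of 7 dpt stood apart. Its 3 skin markers summed to 1274 CPM, against 24.4 and 33.8 CPM in the other control libraries and 16.7 to 31.9 CPM in *il11a*OE libraries, so results at 7 dpt that rest on it are given with and without it. At 7 mpt the skin markers were also raised in control replicate 4, at 164 CPM. The other control libraries there had 19.8 to 31.5 CPM and *il11a*OE libraries 8.81 to 13.1 CPM. In bulk RNA, fewer cells of a type and less RNA per cell cannot be told apart.

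The summed level of the collagen genes per length was higher in every *il11a*OE library than in every control library at both time points, and the classes that made up the sum differed. At 7 dpt the sum was 361, 383 and 370.2 RPKM in *il11a*OE libraries, against 325, 331 and 251 RPKM in control libraries. At 7 mpt it was 1954, 1989, 902 and 951 RPKM in *il11a*OE libraries, against 338, 222, 236 and 280.3 RPKM in control libraries. The fibrillar part alone came to 115, 114 and 131 RPKM in *il11a*OE and 118, 116 and 80.8 RPKM in control at 7 dpt, where the groups overlapped. At 7 mpt it came to 1169, 1442, 597 and 603 RPKM in *il11a*OE, where the first pair are the F and the second pair the M libraries, against 230.3, 142, 147 and 193 RPKM in control. The basement membrane part ran the other way at 7 dpt, at 55.4, 59.5 and 62.4 RPKM in *il11a*OE libraries, against 87.5, 75.03 and 76.9 RPKM in control libraries, and overlapped between the groups at 7 mpt. At 7 dpt only the part of the other types was higher in every *il11a*OE library, so the separation of the sums there lay in it. That part came to 97.3, 107 and 63.6 RPKM in *il11a*OE, against 11.1, 51.7 and 10.8 RPKM in control. Most of it in *il11a*OE was the type X gene *col10a1b*, at 88.4, 97.8 and 54.6 RPKM, which was not called at 7 dpt (edgeR adjusted p = 0.159). Type X, a network-forming collagen best known from cartilage and bone, made up 24.5, 25.5 and 14.8% of the summed level in *il11a*OE at 7 dpt, against 0.0816, 8.88 and 0.0357% in control. Its share at 7 mpt was 25.8, 10.6, 17.1 and 22.7% in *il11a*OE, against 0.0674, 0.0874, 0.04698 and 0.0482% in control.

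**Figure D1:**
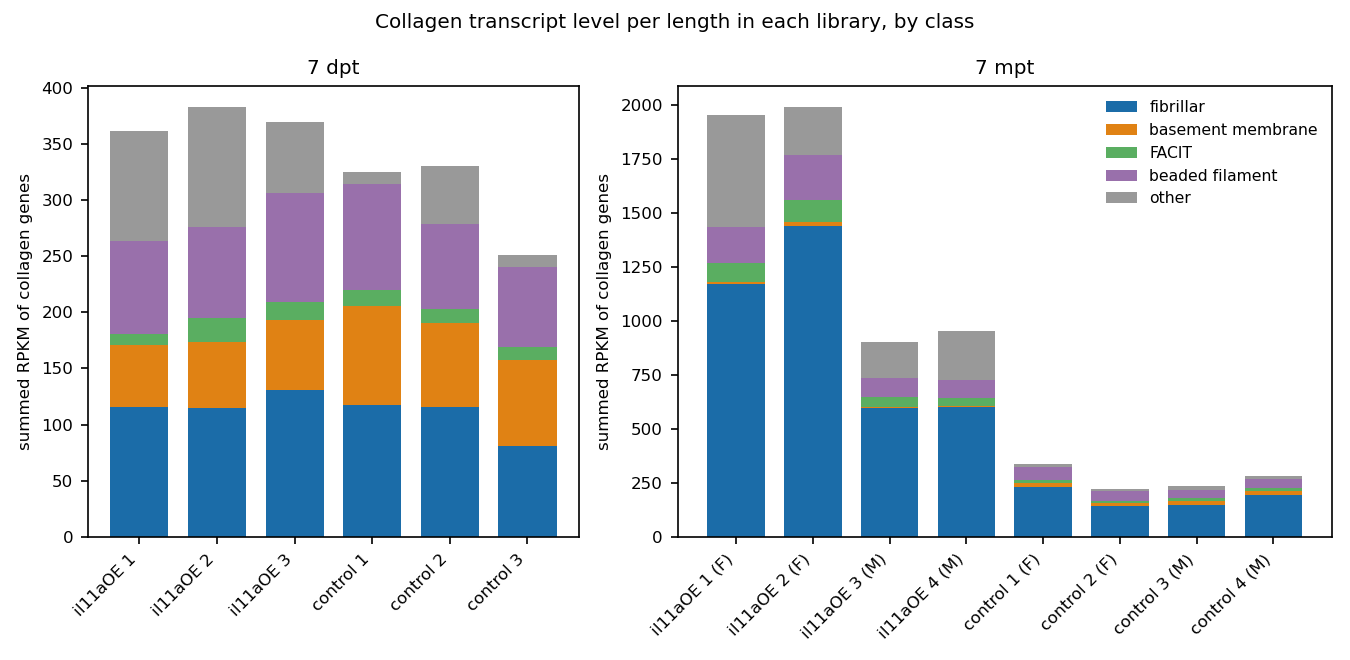
Summed RPKM of the collagen genes in each library (bars, starting at 0, stacked by class), with *il11a*OE libraries left of control libraries, at 7 dpt and 7 mpt on separate scales. The *il11a*OE libraries of 7 mpt reach 902 to 1989 RPKM, mostly fibrillar, and the control libraries 222 to 338 RPKM.

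At 7 dpt, 42 of the 57 genes had enough counts to be tested, with 3 higher and 11 lower in *il11a*OE (edgeR adjusted p under 0.05). Of all 19647 genes tested, 37.2% passed, 20.2% higher and 17.1% lower. Over 4-fold, 1 collagen gene was higher and 1 lower, against 4.22% and 1.24% of all genes. The median log2 fold change was -0.205 over the tested collagen genes and 0.02 over all genes. The genes that were lower came mainly from the basement membrane class, with 6 of its 8 tested genes lower and 0 higher (median -0.85), while 1 of 12 tested fibrillar genes was lower, 2 FACIT genes were lower and 3 higher of 8, 2 other genes were lower of 10, and none of 4 beaded filament genes passed. The 15 genes not tested had at most 20 counts in any *il11a*OE library, and at most 2281 in a control library, a count reached by *col10a1a* in control replicate 2.

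**Figure D2:**
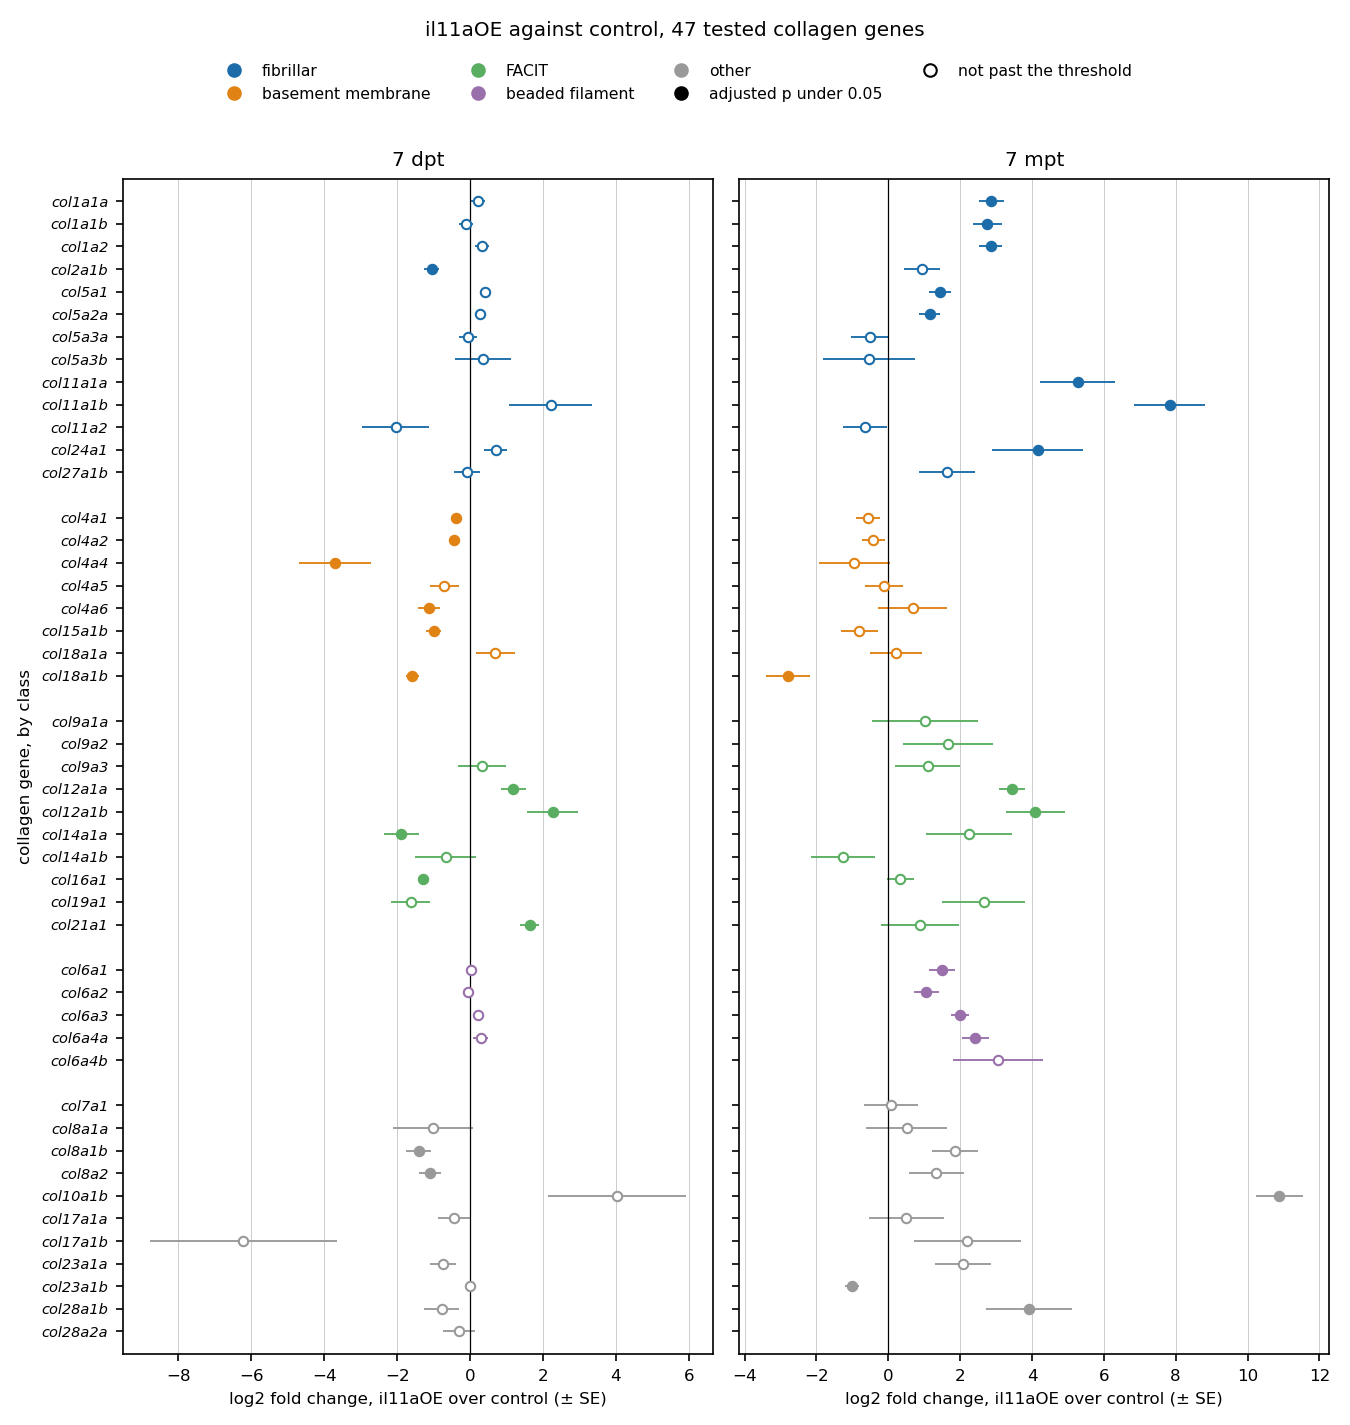
Log2 fold change of *il11a*OE over control (points, with the SE as bars) for the 47 collagen genes tested at either time point, by class, with filled points past an adjusted p of 0.05. At 7 dpt 6 of 8 basement membrane genes are filled left of 0, and at 7 mpt 8 of 13 fibrillar and 4 of 5 beaded filament genes are filled right of 0. The axes differ between the panels.

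The most abundant basement membrane chains at 7 dpt were *col4a1* (ENSDARG00000055009, chromosome 9 from 8634229 to 8670158 of GRCz11) and *col4a2* (ENSDARG00000104110, chromosome 9 from 8761099 to 8882901), the chains of the type IV network found under nearly every endothelium. *col4a1* had 197, 195 and 202 CPM in *il11a*OE libraries, against 281, 243 and 246 CPM in control libraries. For *col4a1* the log2 fold change was -0.37 (SE 0.08, edgeR adjusted p = 0.0141). *col4a2* had 93.9, 109 and 109 CPM in *il11a*OE libraries, against 164, 127 and 132 CPM in control libraries. For *col4a2* the log2 fold change was -0.44 (SE 0.12, edgeR adjusted p = 0.0328). Every *il11a*OE library lay below every control library for both genes, with a fold of 0.772 and 0.738 over control. Their ratio per length was 1.48 to 1.74 in *il11a*OE and 1.41 to 1.58 in control, so the ranges of the groups overlapped. *col4a6* had 0.775, 0.677 and 1.32 CPM in *il11a*OE libraries, against 2.33, 1.72 and 2.002 CPM in control libraries (log2 fold change -1.12, SE 0.302, edgeR adjusted p = 0.0272), while *col4a5*, its partner chain, had 1.804, 0.843 and 2.71 CPM in *il11a*OE libraries, against 2.88, 3.05 and 2.82 CPM in control libraries and did not pass (edgeR adjusted p = 0.202). *col4a4* was close to background, with 5, 20 and 10 counts in *il11a*OE libraries, against 177, 17 and 172 counts in control libraries (log2 fold change -3.705, SE 0.999, edgeR adjusted p = 0.0291). Its control replicate 2 was as low as the *il11a*OE libraries, and its exons overlap those of *col4a3* and of another gene on the opposite strand, so reads of these genes cannot be assigned with certainty. *col4a3* itself had 3, 3 and 1 counts in *il11a*OE libraries, against 0, 8 and 3 counts in control libraries and was not tested.

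Of the basement membrane collagens that carry heparan or chondroitin sulphate, *col18a1b* (ENSDARG00000095901, chromosome 6 from 20678890 to 20707846), whose mammalian counterpart releases endostatin, had 5.53, 8.39 and 8.22 CPM in *il11a*OE libraries, against 22.5, 23.04 and 20.8 CPM in control libraries. For *col18a1b* the log2 fold change was -1.58 (SE 0.17, edgeR adjusted p = 0.000916). *col15a1b*, of the type XV chain that is its closest relative, had 1.45, 1.099 and 1.598 CPM in *il11a*OE libraries, against 2.95, 2.96 and 2.39 CPM in control libraries. For *col15a1b* the log2 fold change was -0.999 (SE 0.204, edgeR adjusted p = 0.00975). Both were lower with no overlap between the groups. The second type XVIII gene, *col18a1a*, had 13.6, 19.7 and 28.2 CPM in *il11a*OE libraries, against 4.92, 13.3 and 19.6 CPM in control libraries, and its groups overlapped (edgeR adjusted p = 0.344). The summed endothelial markers, 2 of 6 of which were also lower, stood at 784 to 844 CPM in *il11a*OE and 1183 to 1212 CPM in control at 7 dpt. The 7 smooth muscle and mural markers, 1 of them lower and 2 higher, summed to 364 to 449 CPM in *il11a*OE and 474 to 597 CPM in control. The 4 valve markers, 2 of them lower, summed to 131 to 198 CPM in *il11a*OE and 306 to 358 CPM in control. None of these 3 sums overlapped between the groups, and their part in the lower basement membrane and type VIII genes was not tested. Lower sums were not particular to these 3 lists. The cardiomyocyte sums, with 4 of 5 markers lower and 1 higher, also lay below control without overlap at 7 dpt. So did the epicardial, erythroid and bulbus arteriosus sums, while the macrophage sums lay above control.

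Among the FACIT genes, *col16a1* had the highest control level per length at 7 dpt and was the gene of the whole family with the smallest adjusted p. Its level was 17.6, 15.6 and 18.1 CPM in *il11a*OE libraries, against 50.6, 36.4 and 39.2 CPM in control libraries (log2 fold change -1.297, SE 0.14, edgeR adjusted p = 0.00089), so that control libraries held more than any *il11a*OE library. *col14a1a*, of the fibril-bound type XIV, had 9, 9 and 11 counts in *il11a*OE libraries, against 23, 41 and 15 counts in control libraries (log2 fold change -1.88, SE 0.48, edgeR adjusted p = 0.0223). The 3 higher genes were all of this class. *col21a1* had 1.705, 2.41 and 3.097 CPM in *il11a*OE libraries, against 0.833, 0.728 and 0.751 CPM in control libraries (log2 fold change 1.64, SE 0.26, edgeR adjusted p = 0.00389), without overlap. Type XII collagen, which links fibrils to the surrounding matrix, has a pair of genes in zebrafish. *col12a1a* (ENSDARG00000078322, chromosome 17 from 49785495 to 49978986) had 61.9, 167 and 108 CPM in *il11a*OE libraries, against 55.4, 48.01 and 44.1 CPM in control libraries. For *col12a1a* the log2 fold change was 1.19 (SE 0.34, edgeR adjusted p = 0.0373). *col12a1b* had 2.701, 20.6 and 13.5 CPM in *il11a*OE libraries, against 2.44, 2.81 and 2.39 CPM in control libraries, so its first *il11a*OE library sat within the control values (log2 fold change 2.27, SE 0.696, edgeR adjusted p = 0.0481). For both genes *il11a*OE replicate 1 was the lowest and replicate 2 the highest of the group. Both calls rested on the libraries used. *col12a1a* was lost without *il11a*OE replicate 2 (0.0598), *il11a*OE replicate 3 (0.0863), control replicate 1 (0.0787), control replicate 2 (0.0935) and control replicate 3 (0.113), and *col12a1b* without *il11a*OE replicate 2 (0.117), *il11a*OE replicate 3 (0.117), control replicate 1 (0.134), control replicate 2 (0.1) and control replicate 3 (0.137), the adjusted p without that library in parentheses.

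Of the remaining lower genes, *col8a1b* and *col8a2* encode chains of the short-chain network collagen of vessel walls. *col8a1b* had 0.8302, 1.67 and 2.08 CPM in *il11a*OE libraries, against 3.27, 4.46 and 4.39 CPM in control libraries. *col8a2* had 1.42, 0.843 and 0.761 CPM in *il11a*OE libraries, against 2.09, 2.67 and 1.72 CPM in control libraries. Their log2 fold changes were -1.401 and -1.097 (SE 0.34 and 0.31, edgeR adjusted p = 0.0193 and 0.0312), with no overlap in either. *col2a1b*, a type II chain of cartilage, was the lower fibrillar gene, with 2.67, 2.59 and 2.48 CPM in *il11a*OE libraries, against 6.55, 5.72 and 3.77 CPM in control libraries. For *col2a1b* the log2 fold change was -1.05 (SE 0.21, edgeR adjusted p = 0.00965). The cartilage and bone markers, of which 1 of 2 tested was lower, summed to 7.495 to 13.5 CPM in *il11a*OE and 39.4 to 80.3 CPM in control at 7 dpt, also without overlap, and their part in the level of *col2a1b* was not tested. In one fit of all 14 libraries of the study only *col16a1* of the 14 kept its call. Of the 14 genes called at 7 dpt, 6 kept their call in each of the 6 fits that left out a library, namely *col16a1*, *col18a1b*, *col2a1b*, *col15a1b*, *col4a1* and *col21a1*. *col4a2* was lost without *il11a*OE replicate 1 (0.105), *il11a*OE replicate 2 (0.0592), *il11a*OE replicate 3 (0.0661), control replicate 1 (0.066) and control replicate 3 (0.0535), and *col4a6* without *il11a*OE replicate 1 (0.0925), *il11a*OE replicate 2 (0.0697), control replicate 1 (0.0787) and control replicate 3 (0.0641). *col4a4* was lost without *il11a*OE replicate 1 (0.0915), *il11a*OE replicate 3 (0.107), control replicate 1 (0.0743) and control replicate 3 (0.0748). For *col14a1a* these were *il11a*OE replicate 1 (0.0844), *il11a*OE replicate 2 (0.055), *il11a*OE replicate 3 (0.073) and control replicate 2 (0.0576), for *col8a2* *il11a*OE replicate 2 (0.093), *il11a*OE replicate 3 (0.0986), control replicate 1 (0.0672) and control replicate 2 (0.0844), and for *col8a1b* control replicate 3 (0.0563).

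The chains of the common fibrils did not pass the test at 7 dpt. Type I collagen is a trimer of alpha 1 and alpha 2 chains, and zebrafish have the genes *col1a1a*, *col1a1b* and *col1a2* for it. *col1a1a* had 114, 129.6 and 129 CPM in *il11a*OE libraries, against 120.03, 125 and 75.9 CPM in control libraries. For *col1a1a* the log2 fold change was 0.21 (SE 0.19, edgeR adjusted p = 0.432). *col1a1b* had 128, 138 and 143 CPM in *il11a*OE libraries, against 173, 163 and 104.2 CPM in control libraries. For *col1a1b* the log2 fold change was -0.105 (SE 0.19, edgeR adjusted p = 0.701). *col1a2* had 154, 174 and 191 CPM in *il11a*OE libraries, against 156, 156 and 100.3 CPM in control libraries. For *col1a2* the log2 fold change was 0.34 (SE 0.19, edgeR adjusted p = 0.204). In all 3 genes control replicate 3 was the lowest library. The order of the chains differed between the groups, with *col1a1b* at 0.766 to 0.851 of the *col1a2* level per length in *il11a*OE and 1.06 to 1.14 in control. *col5a2a*, a type V chain and the fibrillar gene with the highest control level per length, had 179.997, 131 and 189 CPM in *il11a*OE libraries, against 146, 142 and 124 CPM in control libraries, and *col5a1*, its partner, had 78.8, 87.6 and 90.7 CPM in *il11a*OE libraries, against 72.5, 70.2 and 51.3 CPM in control libraries (edgeR adjusted p = 0.197 and 0.0671). The groups overlapped for *col5a2a* and did not for *col5a1*. Of the other type V chains, *col5a3a* had 1.82 to 3.28 CPM in *il11a*OE and 2.55 to 2.94 CPM in control, and *col5a3b* at most 0.277 CPM in any library.

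The 4 tested type VI chains did not pass at 7 dpt either. *col6a2*, the highest of them in control per length, had 124, 120.03 and 152 CPM in *il11a*OE libraries, against 156, 135 and 122 CPM in control libraries (log2 fold change -0.06, SE 0.13, edgeR adjusted p = 0.751), and *col6a1* had 120.1, 126 and 149 CPM in *il11a*OE libraries, against 139.97, 136 and 113 CPM in control libraries. For *col6a1* the log2 fold change was 0.02 (SE 0.12, edgeR adjusted p = 0.897). *col6a3*, whose exons share 12.6% of their length with another gene on the same strand, had 204, 213 and 261 CPM in *il11a*OE libraries, against 216, 179 and 184 CPM in control libraries. For *col6a3* the log2 fold change was 0.23 (SE 0.13, edgeR adjusted p = 0.204). *col6a4a* had 242, 214 and 249 CPM in *il11a*OE libraries, against 257, 156 and 164 CPM in control libraries. For *col6a4a* the log2 fold change was 0.29 (SE 0.2003, edgeR adjusted p = 0.297). All 4 overlapped between the groups. *col23a1b*, a transmembrane collagen and the gene of the remaining types with the highest control level per length, had 43.2, 42.6 and 41.2 CPM in *il11a*OE libraries, against 48.01, 34.2 and 44.8 CPM in control libraries. For *col23a1b* the log2 fold change was 0.0004 (SE 0.13, edgeR adjusted p = 0.998).

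A further 3 genes at 7 dpt turned on control replicate 2, the library with the high skin markers. *col10a1b* (ENSDARG00000101535, chromosome 20 from 484256 to 487783) had 208, 230.4 and 129 CPM in *il11a*OE libraries, against 0.597, 33.9 and 0.167 CPM in control libraries. The groups did not overlap, but with replicate 2 in the fit the gene did not pass (log2 fold change 4.03, SE 1.904, edgeR adjusted p = 0.159), and without it the log2 fold change was 8.93 (SE 0.62, edgeR adjusted p = 0.000758). *col11a1b*, a type XI chain, had 5.99, 6.88 and 10.1 CPM in *il11a*OE libraries, against 0.346, 4.404 and 0.234 CPM in control libraries, with a log2 fold change of 2.21 (edgeR adjusted p = 0.184) with that library and 4.71 (edgeR adjusted p = 0.000665) without it. *col17a1b*, a collagen that anchors skin cells to their basement membrane, went the other way, with 0.343, 0.301 and 0.298 CPM in *il11a*OE libraries, against 0.267, 70.4 and 0.2503 CPM in control libraries, and its log2 fold change was -6.22 with and 0.27 without the library (edgeR adjusted p = 0.117 and 0.595). In the same library *col10a1a* stood at 790-fold, *col5a2b* at 40.5-fold and *col7a1*, the anchoring fibril chain of skin, at 19.1-fold the higher of the other control libraries.

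**Figure D3:**
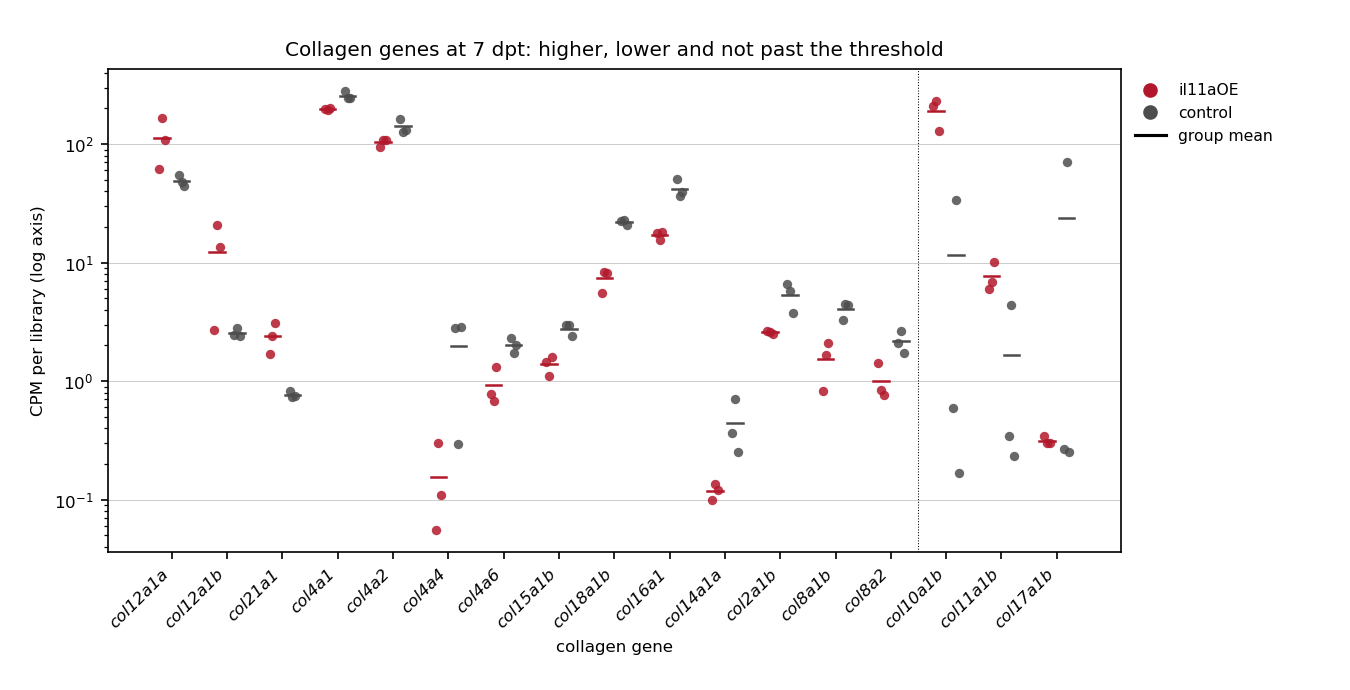
CPM per library on a log axis at 7 dpt for the 14 collagen genes past the threshold and, right of the dotted line, 3 that were not, with *il11a*OE (red) left of control (grey) and group means as bars. Control replicate 2 is the single high grey point of *col10a1b* at 33.9 CPM and of *col17a1b* at 70.4 CPM.

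At 7 mpt, 46 of the 57 genes were tested, with 16 higher and 2 lower in *il11a*OE (edgeR adjusted p under 0.05). Of all 18689 genes tested, 26.4% passed, 14.2% higher and 12.2% lower. The median log2 fold change was 1.24 over the tested collagen genes and 0.03 over all genes. The higher genes were 8 of 13 tested fibrillar genes (median 1.65), 4 of 5 beaded filament genes (median 2.01), 2 of 10 FACIT genes and 2 of 10 other genes. None of the 8 tested basement membrane genes was higher and 1 was lower (median -0.49). A change over 4-fold in the higher direction was called for 12 collagen genes, against 6.94% of all genes, and for 1 in the lower direction, against 1.56%. These counts and medians include *col11a1a*, *col11a1b*, *col24a1* and *col28a1b*, which had 0 counts in a control library. They passed the count filter only through the *il11a*OE libraries, where they were high. None of them kept its call with a filter of at least 10 counts in every library.

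The type I genes were among the most abundant collagens at 7 mpt and rose together. *col1a1a* (ENSDARG00000012405, chromosome 3 from 23221047 to 23239458) had 1823, 2140.3, 853 and 916 CPM in *il11a*OE libraries, against 249, 155, 154 and 231 CPM in control libraries (log2 fold change 2.86, SE 0.35, edgeR adjusted p = 0.000381), of which 7.44% of the exon length is shared with a gene on the opposite strand. *col1a1b* (ENSDARG00000035809, chromosome 12 from 3095699 to 3133483) had 2245, 2646, 998 and 1085 CPM in *il11a*OE libraries, against 371, 196, 169.9 and 292 CPM in control libraries. For *col1a1b* the log2 fold change was 2.76 (SE 0.39, edgeR adjusted p = 0.000913). *col1a2* (ENSDARG00000020007, chromosome 19 from 40983221 to 41002980) had 1699, 2038, 916 and 923 CPM in *il11a*OE libraries, against 243, 156, 162 and 214 CPM in control libraries. For *col1a2* the log2 fold change was 2.85 (SE 0.31, edgeR adjusted p = 0.000228). In each gene the lowest *il11a*OE library was above the highest control library, and both F libraries of *il11a*OE were above both M libraries. Per length the ratios of the chains overlapped between the groups, with *col1a1a* at 0.889 to 1.02 of the *col1a2* level in *il11a*OE and 0.907 to 1.03 in control, and *col1a1b* at 1.12 to 1.35 in *il11a*OE and 1.08 to 1.57 in control.

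The minor fibrillar chains of types V and XI were also higher, 4 of the 7 tested. *col5a2a*, the fibrillar gene with the highest control level per length, had 619, 976, 440.2 and 367 CPM in *il11a*OE libraries, against 335, 221, 266 and 262 CPM in control libraries. For *col5a2a* the log2 fold change was 1.15 (SE 0.29, edgeR adjusted p = 0.0167). *col5a1*, its partner in type V trimers, had 325, 443, 191 and 166 CPM in *il11a*OE libraries, against 121, 81.3, 93.2 and 118 CPM in control libraries. For *col5a1* the log2 fold change was 1.44 (SE 0.31, edgeR adjusted p = 0.00704). Neither gene overlapped between the groups, though the highest control library of *col5a2a* came close to its lowest *il11a*OE library. The type XI chain genes were near background in control. *col11a1b* (ENSDARG00000009014, chromosome 2 from 15389193 to 15563194) had 77.7, 104.1, 70.5 and 31.99 CPM in *il11a*OE libraries, against 0.291, 0.0657, 0 and 0.906 CPM in control libraries. For *col11a1b* the log2 fold change was 7.83 (SE 0.99, edgeR adjusted p = 0.000671). *col11a1a* had 440, 794, 96 and 94 counts in *il11a*OE libraries, against 10, 0, 4 and 10 counts in control libraries (log2 fold change 5.28, SE 1.05, edgeR adjusted p = 0.00517). Relative to *col5a1*, the level of *col11a1b* per length was 0.219 to 0.419 in *il11a*OE and 0 to 0.00872 in control. The third chain gene of type XI, *col11a2*, had 0.125 to 0.315 CPM in *il11a*OE and 0.178 to 0.566 CPM in control and did not pass (edgeR adjusted p = 0.501), nor did *col5a3a* (edgeR adjusted p = 0.551) or *col5a3b* (edgeR adjusted p = 0.818). *col24a1*, a further fibrillar chain, had 564, 440, 344 and 166 counts in *il11a*OE libraries, against 56, 0, 4 and 0 counts in control libraries (log2 fold change 4.16, SE 1.26, edgeR adjusted p = 0.0381), and lost its call without *il11a*OE replicate 1 (0.0776), *il11a*OE replicate 2 (0.0742), *il11a*OE replicate 3 (0.0689), *il11a*OE replicate 4 (0.0602), control replicate 3 (0.0921) and control replicate 4 (0.0567).

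All 4 abundant type VI chains were higher at 7 mpt. *col6a3* had 666, 733, 421 and 352 CPM in *il11a*OE libraries, against 149.8, 131, 111 and 149.6 CPM in control libraries (log2 fold change 2.01, SE 0.25, edgeR adjusted p = 0.000435), and *col6a4a* had 194, 234, 137 and 127 CPM in *il11a*OE libraries, against 44.9, 20.05, 47.1 and 17.5 CPM in control libraries. For *col6a4a* the log2 fold change was 2.42 (SE 0.37, edgeR adjusted p = 0.00146). *col6a1* had 278, 360.3, 124 and 114 CPM in *il11a*OE libraries, against 97.8, 71.7, 60.6 and 81.3 CPM in control libraries. For *col6a1* the log2 fold change was 1.49 (SE 0.37, edgeR adjusted p = 0.0156). *col6a2*, its partner and the highest of the class in control per length, had 322, 388, 141 and 137 CPM in *il11a*OE libraries, against 143, 124, 98.9 and 109 CPM in control libraries. For *col6a2* the log2 fold change was 1.06 (SE 0.34, edgeR adjusted p = 0.047). The groups did not overlap for the first 3 genes, and for *col6a2* both M libraries of *il11a*OE lay below control replicate 1. That gene lost its call without *il11a*OE replicate 1 (0.112), *il11a*OE replicate 2 (0.112), control replicate 1 (0.0626), control replicate 2 (0.0862), control replicate 3 (0.117) and control replicate 4 (0.107). Per length *col6a3* stood at 0.7897 to 1.31 of the *col6a1* level in *il11a*OE and 0.594 to 0.714 in control, and *col6a1* at 0.881 to 0.983 of the *col6a2* level in *il11a*OE and 0.612 to 0.786 in control. *col6a4b* was nearly silent, with 26, 74, 12 and 10 counts in *il11a*OE libraries, against 0, 6, 4 and 0 counts in control libraries (edgeR adjusted p = 0.109).

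In the FACIT class both type XII genes were higher at 7 mpt. *col12a1a* had 813, 896, 424 and 319 CPM in *il11a*OE libraries, against 60.8, 39.4, 57.5 and 69.6 CPM in control libraries. For *col12a1a* the log2 fold change was 3.43 (SE 0.36, edgeR adjusted p = 0.000205). *col12a1b* (ENSDARG00000019601, chromosome 20 from 49451764 to 49681850) had 30.8, 17.8, 12.8 and 4.99 CPM in *il11a*OE libraries, against 2.104, 0.241, 0.267 and 1.25 CPM in control libraries. For *col12a1b* the log2 fold change was 4.098 (SE 0.83, edgeR adjusted p = 0.00673). No library of the groups overlapped in either gene, and both kept their call in each of the 8 fits that left out a library. *col12a1a* was the more abundant of the pair per length in every library, by 27.1 to 65.5 times in *il11a*OE and 29.6 to 220.1 times in control. *col16a1*, which had the highest control level of the class per length, had 43.9, 96.6, 23.8 and 33.8 CPM in *il11a*OE libraries, against 46.97, 35.7, 33.9 and 40.5 CPM in control libraries, and the groups overlapped (edgeR adjusted p = 0.587). *col21a1*, higher at 7 dpt, had 1.05, 0.555, 0.0313 and 0.0738 CPM in *il11a*OE libraries, against 0.582, 0.175, 0.0892 and 0.0849 CPM in control libraries (edgeR adjusted p = 0.626).

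The largest change of the family was that of *col10a1b*, the type X chain gene. It had 1190, 498, 364 and 509 CPM in *il11a*OE libraries, against 0.537, 0.438, 0.208 and 0.142 CPM in control libraries (log2 fold change 10.88, SE 0.66, edgeR adjusted p = 3.09e-05), which is 179152, 53840, 46540 and 41412 counts in *il11a*OE libraries, against 48, 40, 14 and 10 counts in control libraries. Per length it was at 155 to 505 RPKM in *il11a*OE, and at 0.0601 to 0.228 RPKM in control, and *col1a2* of the same libraries at 159 to 354 RPKM in *il11a*OE and 27.2 to 42.2 RPKM in control. The other type X gene, *col10a1a*, had at most 0.266 CPM in any library of 7 mpt and was not tested. The summed cartilage and bone markers were 1.97 to 3.702 CPM in *il11a*OE and 2.498 to 9.005 CPM in control at 7 mpt, and none of the 2 tested was called. *col28a1b*, of the von Willebrand domain collagen type XXVIII, had 326, 268, 108 and 74 counts in *il11a*OE libraries, against 0, 0, 8 and 22 counts in control libraries (log2 fold change 3.92, SE 1.202, edgeR adjusted p = 0.0378), and lost its call without *il11a*OE replicate 1 (0.0829), *il11a*OE replicate 2 (0.0867), *il11a*OE replicate 3 (0.0572), *il11a*OE replicate 4 (0.0562) and control replicate 3 (0.0884).

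Both genes that were lower at 7 mpt were outside the fibril-forming classes. *col18a1b*, the basement membrane gene with the highest control level per length, had 7.84, 6.31, 1.25 and 1.23 CPM in *il11a*OE libraries, against 29.1, 31.2, 32.01 and 23.6 CPM in control libraries (log2 fold change -2.797, SE 0.61, edgeR adjusted p = 0.0094), with the M libraries of *il11a*OE the lowest. *col23a1b*, of which 5.99% of the exon length overlaps an opposite-strand gene, had 41.9, 29.03, 35.4 and 44.1 CPM in *il11a*OE libraries, against 79.6, 69.9, 95.4 and 57.1 CPM in control libraries. For *col23a1b* the log2 fold change was -1.005 (SE 0.19, edgeR adjusted p = 0.00378). Neither gene overlapped between the groups. The type IV chains did not pass at this time, with *col4a1* at 6.95, 6.63, 6.07 and 3.98 CPM in *il11a*OE libraries, against 7.25, 4.14, 11.2 and 12.6 CPM in control libraries and *col4a2* at 15.4, 14.5, 9.11 and 7.97 CPM in *il11a*OE libraries, against 12.1, 8.61, 19.6 and 22.3 CPM in control libraries (edgeR adjusted p = 0.254 and 0.411). The letters went opposite ways. *col4a1* was 1.19-fold of control within F, with overlap, and 0.423-fold within M, without overlap. *col4a2* was 1.44-fold within F and 0.407-fold within M, neither with overlap. With 2 libraries a group this was not tested, and the missing call does not show that no difference was present. The 6 endothelial markers, all lower at 7 mpt, summed to 289 to 313 CPM in *il11a*OE and 534 to 836 CPM in control, and their part in the level of *col18a1b* was not tested.

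**Figure D4:**
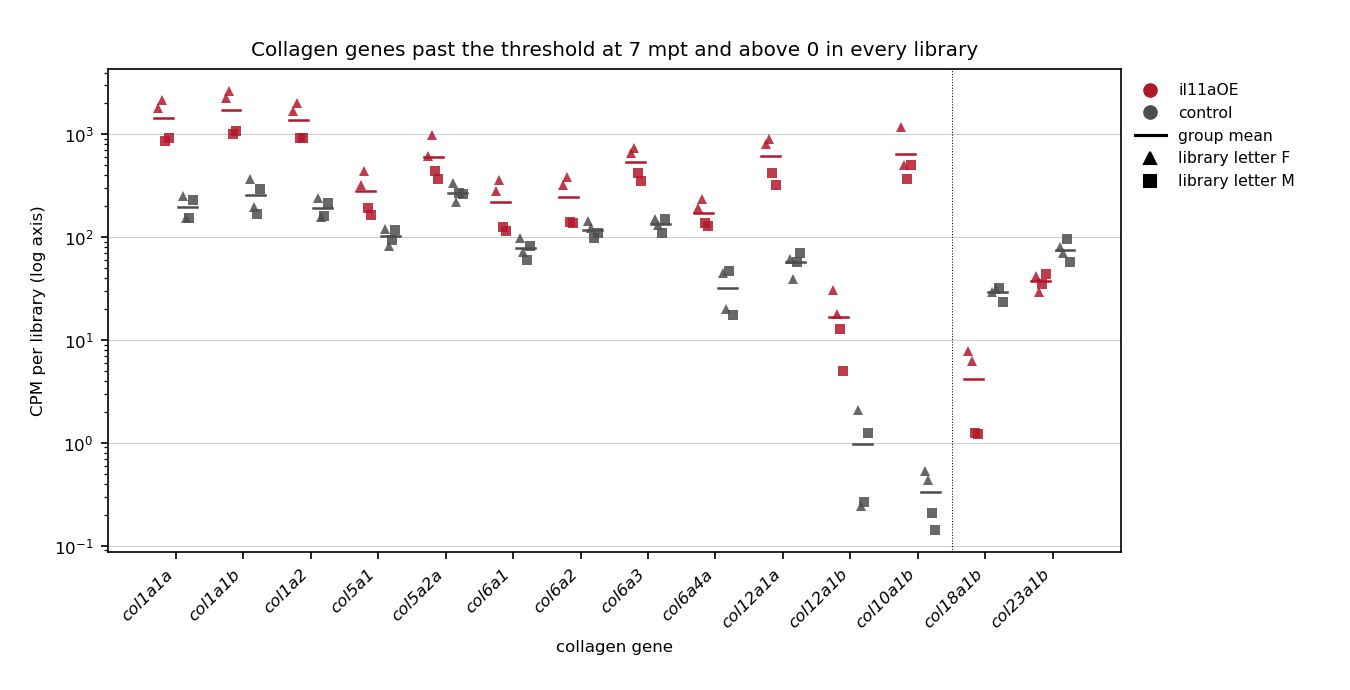
CPM per library on a log axis at 7 mpt for 12 higher collagen genes and, right of the dotted line, 2 lower ones, each above 0 in all 8 libraries, with *il11a*OE (red) left of control (grey), group means as bars, triangles for F and squares for M libraries. The *il11a*OE points of *col1a1a* lie at 853 to 2140.3 CPM and its control points at 154 to 249 CPM.

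The library letter split the *il11a*OE libraries of 7 mpt in most of these genes. Of the 16 higher collagen genes, 15 had both F above both M libraries within *il11a*OE, and 2 had the same order within control. The share of all genes with this order was not computed, so it cannot be said whether the count is particular to the collagen genes. Within F and within M, *il11a*OE lay on one side of control for all 18 called genes, with 2 libraries a group and no test. For all of them but *col6a2* the groups did not overlap over the 8 libraries. The order within each letter was thus fixed in advance for these genes and adds nothing to their calls. Within F, *col1a1a* averaged 1981 CPM in *il11a*OE and 202 CPM in control, 9.804-fold, and within M 884 and 192 CPM, 4.60001-fold. The same folds were 3.77 and 1.68 for *col6a1*, and 17.1 and 5.85 for *col12a1a*. *col10a1b* was 1731-fold higher within F and 2499-fold within M. Whether the effect differs between F and M was not tested.

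The log2 fold change of *il11a*OE over control, with its sign, was then compared between the time points in one model of all 14 libraries. Of 50 tested collagen genes, 6 had a more positive and 1 a more negative value at 7 mpt (edgeR adjusted p under 0.05). Of all 21317 genes tested, 4.41% passed that adjusted threshold, 2.14% with a more positive and 2.27% with a more negative value. Of the 50, 26 had an unadjusted p under 0.05. The share of all genes under that unadjusted threshold was not computed, so it cannot be said whether this count is particular to the collagen genes. A more positive value can also be a weaker fall, so the direction does not give the size of an effect. The 3 type I genes were among the 6. The effect of *col1a2* was larger by 2.49 on the log2 scale (SE 0.39, edgeR adjusted p = 0.00441), that of *col1a1a* by 2.63 (SE 0.44, edgeR adjusted p = 0.00596) and that of *col1a1b* by 2.84 (SE 0.49, edgeR adjusted p = 0.0072). The type VI chain *col6a3* followed with 1.76 (SE 0.31, edgeR adjusted p = 0.00775). These 4 kept their call in all 14 fits that left out a library. *col6a4a* differed by 2.11 (SE 0.48, edgeR adjusted p = 0.0258) and *col12a1a* by 2.22 (SE 0.52, edgeR adjusted p = 0.0304). *col6a4a* lost its call without *il11a*OE replicate 1 of 7 dpt (0.0722), *il11a*OE replicate 2 of 7 dpt (0.0776), *il11a*OE replicate 3 of 7 dpt (0.0673) and control replicate 1 of 7 dpt (0.071), and *col12a1a* without *il11a*OE replicate 1 of 7 dpt (0.0774), *il11a*OE replicate 3 of 7 dpt (0.0814), *il11a*OE replicate 1 of 7 mpt (0.0529), *il11a*OE replicate 2 of 7 mpt (0.0509), control replicate 1 of 7 dpt (0.0723), control replicate 2 of 7 dpt (0.0622) and control replicate 3 of 7 dpt (0.0562). Within a time point *col23a1b* had a log2 fold change of 0.0004 at 7 dpt and -1.005 at 7 mpt, and it passed only at 7 mpt. Without control replicate 2 its value at 7 dpt was -0.136 (SE 0.08, edgeR adjusted p = 0.251). In the contrast the more negative value was that of this gene, with a difference of -1.02 (SE 0.26, edgeR adjusted p = 0.0407). This call was kept in 2 of those 14 fits and lost without *il11a*OE replicate 1 of 7 dpt (0.102), *il11a*OE replicate 2 of 7 dpt (0.0944), *il11a*OE replicate 3 of 7 dpt (0.0838), *il11a*OE replicate 1 of 7 mpt (0.0507), *il11a*OE replicate 2 of 7 mpt (0.0563), *il11a*OE replicate 3 of 7 mpt (0.064), control replicate 1 of 7 dpt (0.061), control replicate 2 of 7 dpt (0.138), control replicate 3 of 7 dpt (0.0782), control replicate 1 of 7 mpt (0.0608), control replicate 2 of 7 mpt (0.0563) and control replicate 3 of 7 mpt (0.0803). None of the 8 tested basement membrane genes was called in this contrast, and none of them had an unadjusted p under 0.05, so the lower type IV and type XV genes of 7 dpt were not shown to differ between the time points. With each time point fitted alone by edgeR on all its libraries, *col12a1a* and *col12a1b* were higher and *col18a1b* lower at both. Without control replicate 2 of 7 dpt, and also with limma-voom, *col12a1a* and *col12a1b* were not called at 7 dpt, and *col10a1b* and *col11a1b*, both higher at 7 mpt, were called higher there. With the counts of 7 mpt halved, since each mate was counted there, 8 genes had a more positive and 1 a more negative value. DESeq2 called 18 and 1. The age of the fish, the sequencing and the way of counting reads all changed with the time point and cannot be told apart from it. The same holds for the tissue, if ventricles were taken at 7 dpt and hearts at 7 mpt.

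Making collagen takes enzymes and chaperones in the endoplasmic reticulum, proteases that trim the ends of the chains and lysyl oxidases that cross-link the fibrils. Over all genes tested at 7 mpt 14.2% were higher and 12.2% lower, the shares against which the counts of each list stand. At 7 mpt, 8 of 15 tested genes of prolyl and lysyl modification were higher and 0 lower, with *plod2* at 55.2 ± 13.9 CPM in *il11a*OE and 9.75 ± 3.19 CPM in control (log2 fold change 2.501, edgeR adjusted p = 0.000217), *ppib* at 382 ± 19.5 CPM in *il11a*OE and 211 ± 11.3 CPM in control (log2 fold change 0.85, edgeR adjusted p = 0.000645) and *plod3* at 45.6 ± 1.15 CPM in *il11a*OE and 26.2 ± 3.41 CPM in control (log2 fold change 0.801, edgeR adjusted p = 0.00136), means ± SD of 4 libraries. Of chaperone and export genes, 6 of 14 were higher and 1 lower, with *creb3l1* at 6.203 ± 1.39 CPM in *il11a*OE and 0.442 ± 0.147 CPM in control (log2 fold change 3.81, edgeR adjusted p = 1e-04), *fkbp14* at 10.3 ± 1.15 CPM in *il11a*OE and 3.25 ± 0.3904 CPM in control (log2 fold change 1.67, edgeR adjusted p = 0.000173) and *fkbp7* at 24.7 ± 2.65 CPM in *il11a*OE and 10.5 ± 2.097 CPM in control (log2 fold change 1.23, edgeR adjusted p = 0.000644). Of propeptide removal genes, 4 of 8 were higher and 0 lower, led by the enhancer *pcolce2b* (log2 fold change 2.22, edgeR adjusted p = 0.00123) and the proteases *adamts2a* (log2 fold change 1.26, edgeR adjusted p = 0.00306) and *adamts3* (log2 fold change 4.12, edgeR adjusted p = 0.0217). Of the lysyl oxidases, 4 of 7 were higher and 0 lower, with *loxl1* at 163 ± 39.5 CPM in *il11a*OE and 41.4 ± 9.59 CPM in control (log2 fold change 1.98, edgeR adjusted p = 0.000269), *loxl2a* at 32.5 ± 13.1 CPM in *il11a*OE and 5.43 ± 2.5995 CPM in control (log2 fold change 2.58, edgeR adjusted p = 0.00119) and *loxa* at 3.22 ± 1.598 CPM in *il11a*OE and 0.538 ± 0.429 CPM in control (log2 fold change 2.57, edgeR adjusted p = 0.00951).

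At 7 dpt, 20.2% of all genes tested were higher and 17.1% lower. Of modification genes, 4 of 15 were higher and 1 lower, led by *plod2*, at 64.6 ± 2.91 CPM in *il11a*OE and 33.8 ± 2.897 CPM in control (log2 fold change 0.93, edgeR adjusted p = 0.000548, n = 3 each), *ppib* (log2 fold change 0.57, edgeR adjusted p = 0.00127) and *p4hb* (log2 fold change 0.904, edgeR adjusted p = 0.00136). Of chaperone and export genes, 5 of 14 were higher and 3 lower, led by *hspa5* (log2 fold change 1.47, edgeR adjusted p = 0.000415), *fkbp10b* (log2 fold change 1.02, edgeR adjusted p = 0.00137) and *fkbp14* (log2 fold change 1.24, edgeR adjusted p = 0.00153). Of propeptide removal genes, 2 of 10 were higher and 2 lower, close to the shares over all genes, and *adamts3* (log2 fold change 2.13, edgeR adjusted p = 0.013), *pcolce2b* (log2 fold change 1.05, edgeR adjusted p = 0.0208) and *tll1* (log2 fold change -0.699, edgeR adjusted p = 0.0319) had the smallest p. None of the 8 lysyl oxidases passed by edgeR, with 0 at an unadjusted p under 0.05, and the smallest p was that of *loxa* (log2 fold change 0.72, edgeR adjusted p = 0.11), followed by *loxl2a* (log2 fold change 0.33, edgeR adjusted p = 0.299) and *loxl2b* (log2 fold change 0.42, edgeR adjusted p = 0.349).

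Genes of proteins that bind collagen fibrils were 6 of 10 lower and 0 higher at 7 dpt, and 4 of 10 higher and 1 lower at 7 mpt. At 7 dpt *prelp* (log2 fold change -1.33, edgeR adjusted p = 0.000237), *bgnb* (log2 fold change -1.42, edgeR adjusted p = 0.00295) and *lum* (log2 fold change -1.19, edgeR adjusted p = 0.00633), all small leucine-rich proteoglycans, led the lower ones. At 7 mpt *sparc*, a collagen-binding glycoprotein, was at 739.5 ± 240.4 CPM in *il11a*OE and 159.9 ± 44.3 CPM in control (log2 fold change 2.21, edgeR adjusted p = 0.00045) and *lum* at 28.8 ± 4.36 CPM in *il11a*OE and 3.05 ± 1.93 CPM in control (log2 fold change 3.24, edgeR adjusted p = 0.000987), while *podn* was lower (log2 fold change -2.43, edgeR adjusted p = 0.00194). Of the collagen receptors, 3 of 10 were higher at 7 dpt, *mrc2* (log2 fold change 1.66, edgeR adjusted p = 0.00652), *ddr2a* (log2 fold change 0.69, edgeR adjusted p = 0.00844) and *ddr2l* (log2 fold change 0.59, edgeR adjusted p = 0.0162), and 5 of 11 at 7 mpt, led by *ddr1* (log2 fold change 1.45, edgeR adjusted p = 0.00597), *ddr2a* (log2 fold change 1.404, edgeR adjusted p = 0.00987) and *itgb1a* (log2 fold change 0.58, edgeR adjusted p = 0.0136). None of the receptors was lower at either time. Of the laminins, nidogens and other basement membrane partners, 3 of 14 were higher at 7 dpt, among them *nid2a* (log2 fold change 1.42, edgeR adjusted p = 0.000293) and *lama2* (log2 fold change 1.57, edgeR adjusted p = 0.00109), and 3 lower, among them *nid1a* (log2 fold change -0.47, edgeR adjusted p = 0.00554), both counts close to the shares over all genes. At 7 mpt 2 of 14 were higher, also close to the share over all genes. They were *lama1* (log2 fold change 4.73, edgeR adjusted p = 0.00287) and *lamb2* (log2 fold change 0.56, edgeR adjusted p = 0.022), with *nid1a* next (log2 fold change 0.56, edgeR adjusted p = 0.0642).

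Markers of the cells that make collagen and of other cells were set beside these genes. Of 7 fibroblast markers, 5 were higher and 1 lower at 7 mpt, and their summed level was 1260.3 to 1933 CPM in *il11a*OE and 249 to 480.5 CPM in control. At 7 dpt 2 were higher and 2 lower, and the sum was 317 to 461 CPM in *il11a*OE and 324 to 386 CPM in control, so the ranges overlapped as those of the type I genes did. *dcn* and *lum* are both in this list and among the fibril-binding genes. The 8 epicardial markers were 3 higher and 0 lower at 7 mpt, with sums of 2294 to 3404 CPM in *il11a*OE and 1849.7 to 2810.2 CPM in control, and of the 6 macrophage markers 5 were higher, with sums of 801 to 1015 CPM in *il11a*OE and 103 to 222 CPM in control. The epicardial sums overlapped between the groups at 7 mpt. At 7 dpt 2 epicardial markers were higher and 3 lower, with sums of 1196 to 1599 CPM in *il11a*OE and 1806 to 2067 CPM in control, so there every *il11a*OE sum lay below the control sums. At 7 dpt all 6 macrophage markers were higher, with sums of 508 to 626 CPM in *il11a*OE and 215 to 277 CPM in control. The 4 liver markers, of which 1 was higher and 0 lower at 7 mpt, summed there to 829 to 2482 CPM in *il11a*OE and 18.4 to 113 CPM in control. Their median log2 fold change was -0.607, so the sums do not describe the liver list as a whole. No marker of the fibroblast, epicardial or macrophage lists was at 0 in every library. Their part in the collagen levels was not tested.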

How the data were processed

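Bulk RNA-seq of pooled uninjured hearts was analysed from the deposited counts. According to the study's methods and the headers of the tables, the authors used HISAT2 on the GRCz11 genome and made counts per Ensembl gene with featureCounts 2.0.0, without using strand, as read pairs at 7 dpt and as single mates at 7 mpt, and the values were deposited without normalization. Without strand, reads of a gene and an opposite-strand partner cannot be told apart, and 12 of the 57 genes share exon bases with another gene. Near-identical copies may also lose reads. Gene coordinates are those of the count tables.

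Symbols were matched for 29366 of 32520 gene identifiers. For the 57 collagen genes they came from the reference table (30), from the reference table with its letter from RefSeq names on the same chromosome (16) and from the names in the study's supplements (11). The collagen genes and the lists were chosen with earlier results of these data known. Each time point was fitted alone with edgeR's quasi-likelihood test (R 4.3.3, edgeR 4.0.16, limma 3.58.1), with robust dispersions, filterByExpr, TMM scaling and Benjamini-Hochberg adjustment over all genes tested, at a threshold of 0.05, and the difference of the effects was a contrast over all 14 libraries. CPM and RPKM were computed from the counts, the scaled library sizes and the exon lengths of the tables. P-values measure only the spread between these libraries, and the labels do not say how many hearts each pool held. The study's methods give fewer pools per group at 7 mpt than the 4 libraries used here. No library was a duplicate of another by a chi-square test of the counts.

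Values per library are given for genes called at 7 dpt, for up to 6 called genes of each class at 7 mpt and all called genes of the other types, for the gene with the highest control RPKM of each class, for partner chains and for genes called in the contrast, and for the handling lists the 3 genes with the smallest p. Alternatives exchanged TMM for the size factors of DESeq2, or edgeR for DESeq2 1.42.0 or for limma-voom with quality weights per sample. Filters of at least 1 count somewhere and of at least 10 counts everywhere were tried. A joint model of all 14 libraries, a replicate block, a term for the library letter, halved 7 mpt counts and fits leaving out each library completed the set. The fits were tested on simulated data. A planned ranking of genes by correlation with *col1a1a* was not run, because the 8 libraries of 7 mpt fall into 2 groups. Sequences were not used here.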

Additional observations from a re-analysis of the deposited data

Results flagged for a closer look

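In 7 collagen genes the effect of *il11a*OE at 7 mpt differed from that at 7 dpt by the test of the difference itself. On the log2 scale, 7 mpt minus 7 dpt, it was 2.63 for *col1a1a*, 2.84 for *col1a1b*, 2.49 for *col1a2*, 2.22 for *col12a1a*, 1.76 for *col6a3*, 2.11 for *col6a4a* and -1.02 for *col23a1b*. At 7 mpt itself *il11a*OE was higher than control for the first 6 genes and lower for *col23a1b*.

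In the control libraries of 7 mpt, replicate 1 was far from the others for *col24a1*, at 0.627 CPM, against 0, 0 and 0.0594 CPM in the other control libraries and 2.04 to 4.07 CPM in *il11a*OE libraries. Of the 36 groups of 4 libraries examined this was the 1 past Dixon's critical value at 95%, which chance alone passes in about 1 of 20 groups.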

How the results depend on the processing

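No called collagen gene changed direction under any alternative. At 7 mpt, 15 of 18 calls held without each library in turn, and 14 under every other setting in which the gene was tested. Among the 14, *col11a1b* fell out of the test with the filter of at least 10 counts everywhere. The fits without a library gave 13 to 18 higher and 2 to 3 lower genes. At 7 dpt, 6 of 14 calls held without each library and 1 under every other setting, and the fits without a library gave 1 to 3 higher and 7 to 9 lower genes. A filter of at least 1 count in any library left 1 higher gene at 7 dpt. One edgeR fit of all 14 libraries gave 0 higher genes there (3 at an unadjusted p under 0.05) and 2 lower, against 3 higher by DESeq2 and 3 by limma-voom. The 2 lower were *col16a1* and *col10a1a*. In the control libraries *col10a1a* had 2281 counts in replicate 2 and 2 and 3 counts in the others, so its call rests on replicate 2. The 3 of DESeq2 are those of edgeR, while limma-voom shared 1 of them, *col21a1*, lost *col12a1a* and *col12a1b* and called *col10a1b* and *col11a1b*. In that fit 3437 of all genes passed at 7 dpt, against 7318 when the time point was fitted alone. For the difference between the time points, leaving out a library gave 4 to 11 more positive and 0 to 1 more negative values. More positive values numbered 18 with DESeq2, 11 with limma-voom and 11 with the library letter as a covariate. There 2020, 1542 and 1445 of all genes passed, against 940 in the model as fitted. With DESeq2's size factors in edgeR there were 0 more negative values, with 1 at an unadjusted p under 0.05, and DESeq2 itself gave 1. The cause was not tested.

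With the replicate number as a block, edgeR called 2 genes higher and 9 lower at 7 dpt, of which 1 and 9 were also called without it. It did not call *col12a1a*, *col12a1b*, *col4a2* or *col4a4* there, and called *col18a1a* higher. With the block there were 16 higher and 2 lower genes at 7 mpt. In the difference between the time points the block gave 5 more positive and 0 more negative values, with 2 more negative ones at an unadjusted p under 0.05. There 568 of all genes passed. No pairing of the libraries by number was seen, though so few libraries cannot exclude one. The deviations of same-numbered libraries correlated at 0.011, -0.034 and 0.137 at 7 dpt and at -0.0040, 0.077, 0.121 and 0.113 at 7 mpt, and not every library correlated best with its own number. At 7 mpt each *il11a*OE library correlated best with a control library of the same letter.

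Depth limits the genes near 0. In control libraries of 7 mpt *col11a1a* had at most 10 counts and *col28a1b* at most 22, so their fold changes rest on few reads.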

Other observations

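The type VIII gene *col8a1b* was lower at 7 dpt, and at 7 mpt it had 11.4, 11.6, 15.8 and 7.45 CPM in *il11a*OE libraries, against 8.30, 1.12, 1.13 and 2.21 CPM in control libraries (log2 fold change 1.85, edgeR adjusted p = 0.0637), with control replicate 1 the one control library inside the *il11a*OE range. *col8a1b* was called there by DESeq2, limma-voom, the filter of at least 10 counts everywhere and the joint model of all 14 libraries. A replicate block and the letter term called it too (with the letter, log2 fold change 2.03, edgeR adjusted p = 0.0489). DESeq2's size factors in edgeR, the 1-count filter and halved counts did not. In the time contrast it did not pass (difference 3.25, SE 0.87, edgeR adjusted p = 0.0512), but DESeq2 and limma-voom called it. Its partner *col8a2* had 0.425, 0.555, 0.376 and 0.443 CPM in *il11a*OE libraries, against 0.201, 0.0219, 0.119 and 0.368 CPM in control libraries (edgeR adjusted p = 0.238) with no overlap between the groups. Type IX collagen, a FACIT partner of type II in cartilage, did not pass at either time point where tested, with *col9a2* at 7 mpt at 1.82, 1.24, 0.0313 and 0.270 CPM in *il11a*OE libraries, against 0.470, 0.438, 0.149 and 0 CPM in control libraries, *col9a3* at no more than 0.407 CPM in any library of 7 mpt, and *col9a1b*, which was not tested, at 0 counts in all but 1 library of the study.

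Of the 57 genes, 10 had too few counts to be tested at either time point, and 41 were tested at both. *col19a1* and *col7a1l* each name 2 gene identifiers, and of these 4 only the *col19a1* gene ENSDARG00000076163 was tested within a time point. It had 0.279, 0.278, 0.157 and 1.16 CPM in *il11a*OE libraries, against 0.201, 0, 0.0594 and 0.0283 CPM in control libraries of 7 mpt (edgeR adjusted p = 0.123). In the contrast over all 14 libraries the *col7a1l* gene ENSDARG00000069692 was also tested and did not pass (edgeR adjusted p = 0.264).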
